A study of Rattus norvegicus with 6 samples.

Results

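Mural cells wrap the vessels of the heart. Smooth muscle cells ring the arteries and arterioles and set their diameter by contracting, and pericytes sit on the capillaries. Smooth muscle is recognised by a contractile set of genes that the serum response factor SRF and its partner myocardin switch on through a short DNA element, the CArG box. Pericytes are recognised by the platelet-derived growth factor receptor Pdgfrb, the proteoglycan Cspg4 (NG2), the signaling regulator Rgs5 and a potassium channel that closes when ATP is plentiful. No one of these genes marks mural cells alone, as fibroblasts also carry Pdgfrb, activated fibroblasts switch on Acta2 and Tagln, and cardiomyocytes use Abcc9.

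RNA from the myocardium was compared for 10 such genes, chosen by name, out of the 28293 genes in the deposited table. They comprise 5 contractile genes (Acta2, Myh11, Tagln, Cnn1 and Myl9), 3 pericyte surface and signaling genes (Pdgfrb, Cspg4 and Rgs5) and the 2 subunits of the vascular KATP channel (Kcnj8 and Abcc9). All 10 were found (Ensembl identifiers ENSRNOG00000058039 for Acta2, ENSRNOG00000057880 for Myh11, ENSRNOG00000017628 for Tagln, ENSRNOG00000027736 for Cnn1, ENSRNOG00000020246 for Myl9, ENSRNOG00000018461 for Pdgfrb, ENSRNOG00000017208 for Cspg4, ENSRNOG00000002730 for Rgs5, ENSRNOG00000013463 for Kcnj8 and ENSRNOG00000036960 for Abcc9). All 10 were among the 10942 genes that were tested, which had a mean of at least 0.5 FPKM over the 6 samples. FPKM divide the fragments of a gene by its length and by the library total, so the values of different genes can be compared per length.

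The sham group comprised 3 male wild-type (WT) rats and the I/R group 3 male WT rats, and the labels give anesthesia, ventilation and thoracotomy for all 6. I/R stands for tying the left anterior descending artery of the heart for 30 min and letting blood back for 6 h, and the sample titles carry the same times for the sham rats. Strain, age and the part of the heart that was taken are not given in the sources used here, and the study's methods give a vehicle injection (PBS, tail vein) for its sham and reperfusion groups without saying whether the sequenced rats were among them. Each sample was treated as 1 rat, and because nothing in the labels says that the numbered samples are separate animals, the p-values measure the spread between these samples.

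The libraries of the groups differed in composition. The 13 mRNAs encoded by mitochondrial DNA took 80.1% to 86.2% of the summed FPKM in the sham group and 61.8% to 71.5% in the I/R group. The log2 fold changes of the 10942 genes had a median of 0.29 rather than 0, and 77.6% of the calls were higher. That share was 87.3% after rescaling to TPM, 56.5% after centring each sample on its median, 48.0% after quantile normalization and 21.7% when the mitochondrial mRNAs were left out of the scaling. Depth in fragments is not given, but low values moved in whole steps. These put the 6 libraries between 0.873 and 1.18 times the depth of sham replicate 1, if FPKM were scaled to the fragment total. That total is not given. Of 8 cardiomyocyte markers, 7 were called higher in the I/R group (limma, adjusted p under 0.05), against 25.5% of all genes tested. The count was 5 without mitochondrial mRNAs in the scaling, 4 with no filter on low values, and 5 without sham replicate 2 or without sham replicate 3. The summed level of the 8 markers was 3413 to 10807 FPKM in the sham group and 20298 to 27153 FPKM in the I/R group, so heart muscle was present in every sample. The part of this difference in the values below was not tested.

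Of the 10 genes, 1 was called higher in the I/R group and 2 were called lower (limma on log2(FPKM + 0.1), Benjamini-Hochberg adjusted p under 0.05 over all genes tested). Among all genes tested, 25.5% were called higher and 7.36% lower, or 32.9% in either direction. Rgs5 rose, Kcnj8 and Pdgfrb fell, and the 5 contractile genes, Cspg4 and Abcc9 did not pass the test. Of the 10 log2 fold changes 8 were above 0, against 65.3% over all genes tested, and their median was 0.51. All fold changes are on the log2(FPKM + 0.1) scale, with the standard error from limma.

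**Figure D1:**
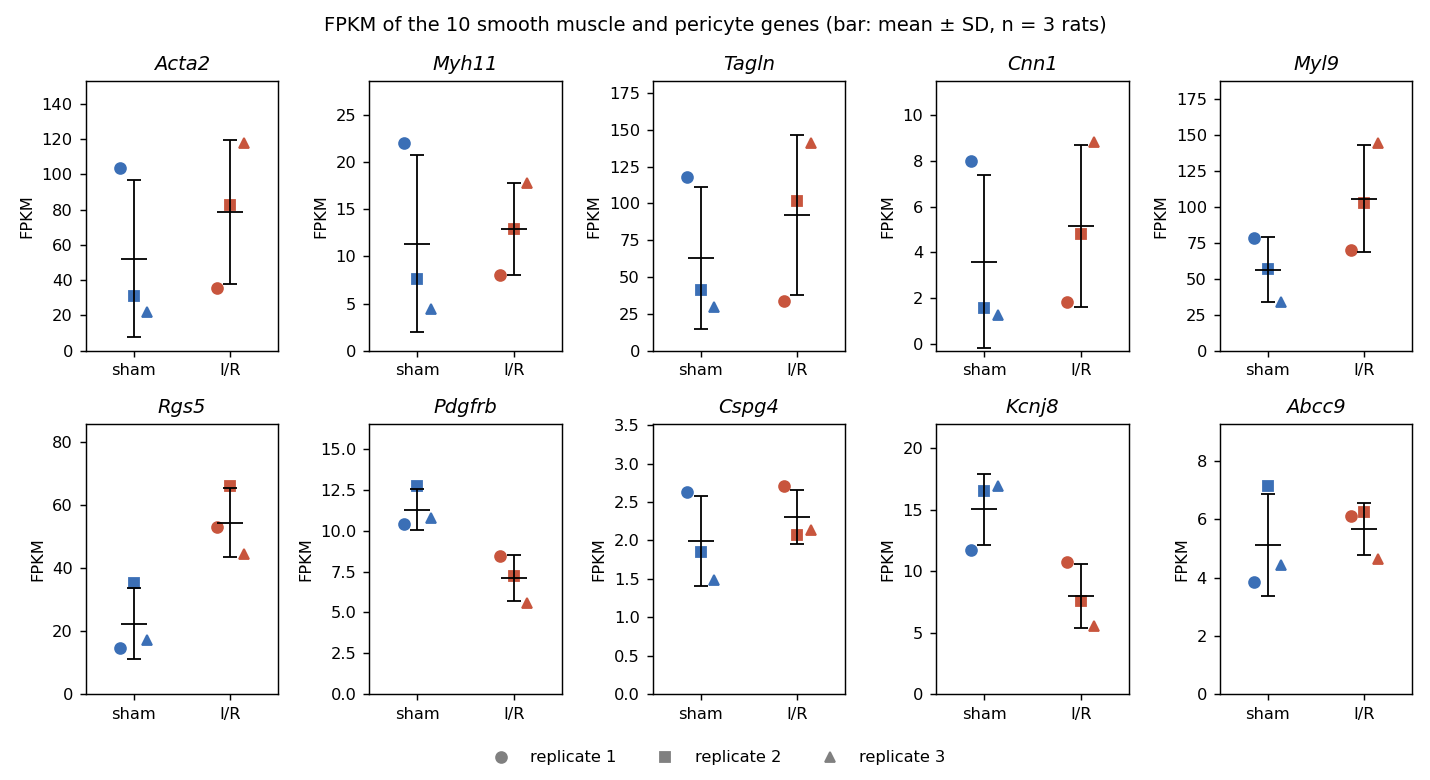
FPKM of each gene (vertical axes, each with its own scale) in the sham (blue) and I/R (red) rats, with a symbol for each replicate number and the mean and SD of 3 rats as the bar. The groups separate for Rgs5 (14.7 to 35.1 against 44.2 to 65.8 FPKM), Pdgfrb and Kcnj8, and overlap for the other genes.

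The contractile genes Acta2, Tagln and Myl9 were the most abundant of the 10, and the contractile set was the least even between rats. Acta2 encodes the smooth muscle α-actin of the thin filament. It stood at 104, 31.1 and 22.0 FPKM in sham replicates 1 to 3 and at 35.8, 82.3 and 118 FPKM in I/R replicates 1 to 3. Sham replicate 1 and I/R replicates 2 and 3 were high and the other rats low, so the groups overlapped (52.3 ± 44.7 against 78.6 ± 41.0 FPKM, SD, n = 3 each). The log2 fold change was 0.76 with a standard error of 0.58 (adjusted p = 0.33, limma), within the spread between rats. Without sham replicate 1 it was 1.42 and passed the test (adjusted p = 0.046, limma), while without sham replicate 3 it was 0.31 (adjusted p = 0.74) and without I/R replicate 3 it was 0.39 (adjusted p = 0.66, limma).

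Myh11 encodes the smooth muscle myosin heavy chain, the motor of the thick filament and the most restricted marker of the set. It stood at 22.0, 7.56 and 4.39 FPKM in the sham rats and at 7.97, 13.0 and 17.8 FPKM in the I/R rats. The highest sample was a sham rat, and the log2 fold change of 0.44 (standard error 0.52) did not pass the test (adjusted p = 0.55, limma). Tagln encodes transgelin (SM22α), an actin-binding protein. It stood at 118, 40.9 and 29.6 FPKM in the sham rats and at 33.8, 102 and 141 FPKM in the I/R rats, and its log2 fold change was 0.59 with a standard error of 0.59 (adjusted p = 0.47, limma). The lowest I/R rat lay below sham replicate 2. Cnn1 encodes calponin, which binds actin and restrains the myosin motor. It was the scarcest contractile gene, at 7.98, 1.57 and 1.25 FPKM in the sham rats and 1.81, 4.81 and 8.84 FPKM in the I/R rats, and its log2 fold change was 0.74 with a standard error of 0.69 (adjusted p = 0.44, limma). Again 1 sham rat exceeded 2 of the I/R rats.

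Myl9 encodes the regulatory myosin light chain, whose phosphorylation starts contraction. It stood at 78.6, 57.0 and 33.8 FPKM in the sham rats and at 70.4, 102 and 144 FPKM in the I/R rats. It was the most even of the 5 and overlapped only because I/R replicate 1 lay below sham replicate 1. The log2 fold change was 0.93 with a standard error of 0.36 (adjusted p = 0.075, limma), close to the threshold, and it passed without sham replicate 1 (1.21, adjusted p = 0.031), without I/R replicate 1 (1.19, adjusted p = 0.046) and after rescaling to TPM (1.12, adjusted p = 0.032, limma). It was 0.60 without sham replicate 3 (adjusted p = 0.26) and 0.67 without I/R replicate 3 (adjusted p = 0.22, limma). Acta2, Myh11, Tagln and Myl9 fell below 0 after quantile normalization, and Acta2, Myh11, Tagln and Cnn1 fell below 0 without mitochondrial mRNAs in the scaling, so the direction of these genes depended on the scaling.

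What the 5 contractile genes shared was the order of the rats. In each of them sham replicate 1 was the highest sham rat and sham replicate 3 the lowest, and I/R replicate 3 was the highest I/R rat and I/R replicate 1 the lowest. Of all genes tested, 168 (1.54%) had this order in both groups. The genes share their libraries and this order was noticed in the data, so the count is a description with no test. None of the 22 other pericyte genes, 8 cardiomyocyte markers, 7 endothelial markers and 8 fibroblast markers tested had the order in both groups. The sham order alone was less particular, as Cspg4 and 19.3% of all genes tested had it. Among the cardiomyocyte markers Myh6 (775, 372 and 230 FPKM in sham replicates 1 to 3), Tnnt2, Actn2, Myl2, Myl3 and Mybpc3 had it. Tnni3 and Ryr2 did not. What these heart muscle markers lacked was the I/R order, which 10.1% of all genes tested had. Of 26 further contractile apparatus genes 4 had the order in both groups, namely Actg2 (the enteric smooth muscle actin), Tpm2, Flna and Kcnmb1. These 4 are named for this order after their values were seen.

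The spread of these genes within a group was wide. Their summed FPKM was 330.2, 138 and 91.0 in the sham rats and 150 (I/R replicate 1), 304 and 429 in the I/R rats, so sham replicate 1 exceeded I/R replicates 1 and 2. The SD of Acta2 within groups was 1.03 on the log2 scale, wider than that of 97.3% of the genes tested, and those of Myh11, Tagln and Cnn1 were wider than 96.4%, 97.5% and 98.4%. Myl9, at 0.57, was wider than 85.8% of genes. The make-up of the sum differed between rats too. The share of Acta2 ranged from 22.5% to 31.4%, that of Tagln from 22.6% to 35.7% and that of Myl9 from 23.8% in sham replicate 1 to 47.0% in I/R replicate 1. In bulk tissue a smaller number of smooth muscle cells and less RNA per cell cannot be told apart, and the amount of arterial wall in each piece was not measured.

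**Figure D2:**
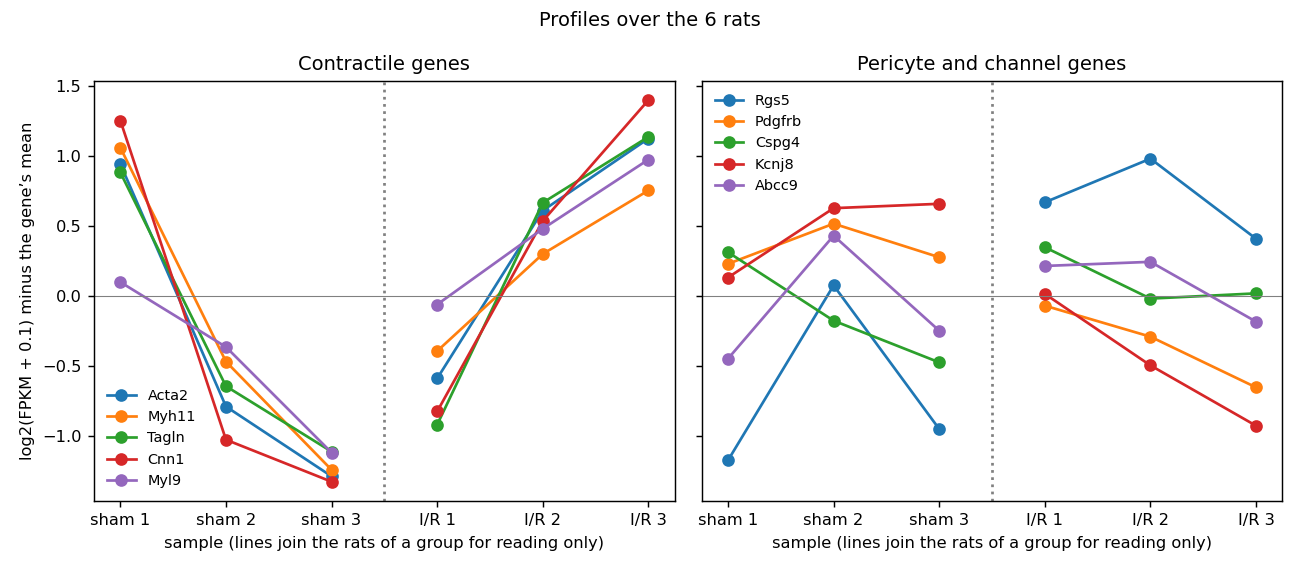
Log2(FPKM + 0.1) of each gene minus its own mean over the 6 rats (vertical axis) for the contractile genes (left) and the pericyte and channel genes (right), with sham rats before the dotted line. All 5 contractile curves are highest in sham 1 and I/R 3 and lowest in sham 3 and I/R 1 within their groups, while Rgs5 lies high and Kcnj8 and Pdgfrb low in the I/R rats.

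The genes whose profile came closest to the mean of the 5 contractile genes were looked up among 9102 other genes with a mean of at least 1 FPKM. The measure was the root mean square difference over the 6 samples of log2 values centred on each gene's mean. Fmod, which encodes the collagen-binding proteoglycan fibromodulin, came nearest at 0.24, followed by Myl4, the essential light chain of atrial and embryonic muscle, at 0.29. Fmod stood at 2.43, 0.634 and 0.305 FPKM in the sham rats and at 0.581, 1.23 and 2.71 FPKM in the I/R rats. The next 3 carry only clone or Ensembl identifiers and lay at 0.32 to 0.35. The 5 genes themselves lay at 0.084 to 0.39 from their mean, and the median of the genes searched was 0.95.

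Sequence was looked up for the regions where transcription of these genes starts. Windows of 250 bases before and 50 bases after the start from RefSeq (build GRCr8) were matched for 6 of the 10 genes, which are Acta2, Cnn1, Cspg4, Rgs5, Kcnj8 and Abcc9, while Myh11, Tagln, Myl9 and Pdgfrb were not matched. The coordinates are those of GRCr8, since the build behind the FPKM table is not given. The contractile pair that varied together, the gene that rose and the channel gene that fell are printed 5′ to 3′ on the strand of the gene. Capitals mark letters that match the CArG box with at most 1 of its 10 letters differing, on either strand.
Acta2 (chr1:241172454-241172753, minus strand): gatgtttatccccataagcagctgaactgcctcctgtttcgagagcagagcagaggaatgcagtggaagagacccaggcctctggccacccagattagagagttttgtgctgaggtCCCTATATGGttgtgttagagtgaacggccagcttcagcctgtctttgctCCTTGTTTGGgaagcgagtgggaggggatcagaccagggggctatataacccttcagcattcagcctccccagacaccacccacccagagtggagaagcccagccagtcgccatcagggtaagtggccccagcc
Cnn1 (chr8:28908187-28908486, plus strand): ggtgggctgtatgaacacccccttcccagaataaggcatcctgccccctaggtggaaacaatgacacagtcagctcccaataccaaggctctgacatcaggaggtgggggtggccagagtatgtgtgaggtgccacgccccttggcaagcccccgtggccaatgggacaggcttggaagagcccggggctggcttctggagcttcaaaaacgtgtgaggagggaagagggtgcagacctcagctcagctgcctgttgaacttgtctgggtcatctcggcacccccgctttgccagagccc
Rgs5 (chr13:84380827-84381126, plus strand): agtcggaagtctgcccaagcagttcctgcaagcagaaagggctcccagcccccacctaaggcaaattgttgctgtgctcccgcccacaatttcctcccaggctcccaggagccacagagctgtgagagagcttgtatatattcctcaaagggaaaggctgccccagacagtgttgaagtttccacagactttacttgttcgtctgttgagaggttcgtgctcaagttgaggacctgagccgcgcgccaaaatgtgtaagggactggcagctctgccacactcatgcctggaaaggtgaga
Kcnj8 (chr4:177246499-177246798, minus strand): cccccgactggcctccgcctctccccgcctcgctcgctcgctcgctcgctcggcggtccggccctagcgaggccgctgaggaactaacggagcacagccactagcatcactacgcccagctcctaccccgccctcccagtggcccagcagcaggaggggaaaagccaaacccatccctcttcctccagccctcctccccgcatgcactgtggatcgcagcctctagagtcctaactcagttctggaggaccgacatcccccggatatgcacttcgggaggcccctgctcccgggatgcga

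Acta2 held 2 such matches, CCCTATATGG at bases −134 to −125 and CCTTGTTTGG at bases −84 to −75 from the start, and the second overlaps a TGGGAA, the core of the site read by the Notch partner RBPJ. The other 5 windows held none. Across all 33469 windows of this length 21.3% held such a match, and 1.64% held the CArG box with no letter differing, which none of the 6 windows did. TGGGAA on either strand occurred in 25.7% of all windows and in Acta2 and Cnn1 among the 6. These are matches of letters in 300 bases and describe neither binding nor elements that lie further away.

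Rgs5, a brake on G protein signaling that is abundant in pericytes, was the gene that rose. It stood at 14.7, 35.1 and 17.2 FPKM in the sham rats and at 53.0, 65.8 and 44.2 FPKM in the I/R rats. Every I/R rat exceeded every sham rat, as in 37.2% of all genes tested, and the means were 22.3 ± 11.1 and 54.3 ± 10.8 FPKM (SD, n = 3 each), a ratio of 2.43. The log2 fold change was 1.37 with a standard error of 0.34 (adjusted p = 0.014, limma, and p = 0.1 by exact permutation, two-sided, the lowest value open to 3 rats against 3). Its direction held under all 17 alternatives, and the call was lost after quantile normalization (0.43, adjusted p = 0.39), without mitochondrial mRNAs in the scaling (0.59, adjusted p = 0.20) and without sham replicate 3 (1.23, adjusted p = 0.054, limma).

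Pdgfrb, the receptor through which pericytes are recruited and held on vessels, went the other way. It stood at 10.4, 12.7 and 10.7 FPKM in the sham rats and at 8.44, 7.22 and 5.60 FPKM in the I/R rats. Every I/R rat lay below every sham rat, as in 13.0% of all genes tested. Its log2 fold change of −0.68 had a standard error of 0.23 and an adjusted p of 0.0496 from limma, which is at the threshold. The call was lost with 5 of the 6 rats left out singly, the exception being I/R replicate 1, with log2 fold changes of −0.81 to −0.52 over the 6 fits, and after rescaling to TPM (−0.48, adjusted p = 0.19, limma). The direction held under all 17 alternatives and the call under 8 of them, and without mitochondrial mRNAs in the scaling it reached −1.45 (adjusted p = 0.0020, limma).

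Cspg4 encodes NG2, a membrane proteoglycan of pericytes and of the cells around growing vessels. It was the scarcest of the 10 genes, at 2.63, 1.85 and 1.48 FPKM in the sham rats and 2.70, 2.07 and 2.13 FPKM in the I/R rats. The groups overlapped, as sham replicate 1 lay above 2 of the I/R rats. Its log2 fold change of 0.23, with a standard error of 0.26, did not pass the test (adjusted p = 0.53, limma), and it fell below 0 after centring on the median (−0.021) and without mitochondrial mRNAs in the scaling (−0.52).

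Kcnj8 encodes Kir6.1, the pore of the vascular KATP channel, and Abcc9 encodes SUR2, the regulatory subunit that pairs with it in mural cells and with another pore in cardiomyocytes. The genes are neighbours on rat chromosome 4. Kcnj8 stood at 11.7, 16.5 and 16.9 FPKM in the sham rats and at 10.8, 7.54 and 5.57 FPKM in the I/R rats. All I/R rats were below all sham rats, as in 13.0% of all genes tested. The gap between sham replicate 1 and I/R replicate 1 was small. The means were 15.0 ± 2.90 and 7.97 ± 2.63 FPKM (SD, n = 3 each), and the log2 fold change was −0.94 with a standard error of 0.29 (adjusted p = 0.031, limma, and two-sided exact permutation test, p = 0.1). The direction held under all 17 alternatives and the call under 11 of them. It was lost without sham replicate 2, without sham replicate 3, without I/R replicate 2 and without I/R replicate 3 (−0.93 to −0.71, adjusted p 0.075 to 0.11), with no filter on low values (adjusted p = 0.063) and after rescaling to TPM (−0.75, adjusted p = 0.092, limma).

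Abcc9 did not follow Kcnj8. It stood at 3.84, 7.13 and 4.42 FPKM in the sham rats and at 6.13, 6.26 and 4.63 FPKM in the I/R rats. The highest sample was a sham rat, and the log2 fold change of 0.18 (standard error 0.28) did not pass the test (adjusted p = 0.64, limma). It turned negative under median centring (−0.069), under quantile normalization (−0.25) and without mitochondrial mRNAs in the scaling (−0.59).

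**Figure D3:**
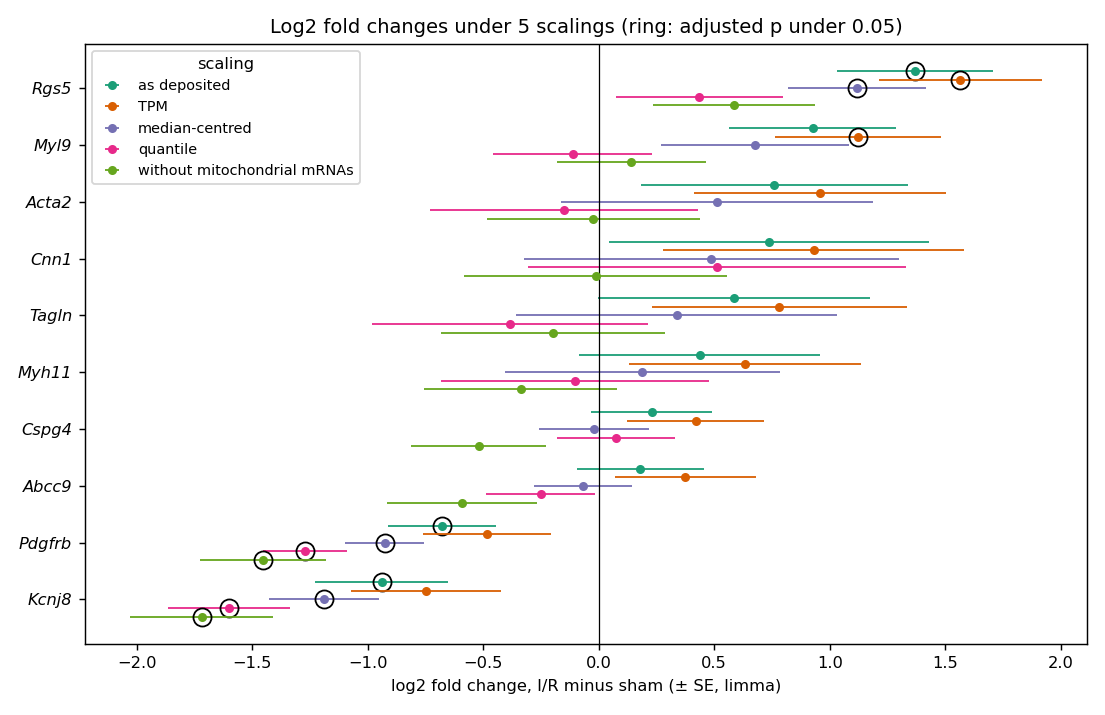
Log2 fold change of each gene with its standard error (horizontal axis, I/R minus sham) under the deposited FPKM and 4 other scalings, with a ring where the adjusted p is under 0.05. Kcnj8 and Pdgfrb stay below 0 and Rgs5 above 0 under all 5, and the other 7 genes cross 0 under at least 1 scaling.

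Ratios between a pair of genes in the same sample were compared next, since a rescaled library moves both genes alike apart from the 0.1 FPKM added to each, and 7 pairs were compared. The log2 ratio of Kcnj8 to Abcc9 was 1.58, 1.20 and 1.91 in the sham rats and 0.81, 0.27 and 0.26 in the I/R rats. The ratio was lower in each I/R rat than in any sham rat, and the mean difference was −1.12 (SD 0.36 in the sham group and 0.31 in the I/R group, n = 3 each). Its two-sided exact permutation p was 0.1, the smallest possible, and 0.18 after Benjamini-Hochberg adjustment over the 7 pairs.

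The log2 ratio of Rgs5 to Pdgfrb moved most, from 0.50, 1.46 and 0.67 in the sham rats to 2.64, 3.17 and 2.96 in the I/R rats, a difference of 2.05. In each I/R rat the ratio was higher than in any sham rat, which was fixed once Rgs5 separated the groups upward and Pdgfrb downward. The log2 ratio of Cspg4 to Pdgfrb was −1.94, −2.72 and −2.78 in the sham rats and −1.61, −1.75 and −1.35 in the I/R rats, a difference of 0.91 with no overlap. Both had an exact permutation p of 0.1 (0.18 adjusted). For Rgs5 to Pdgfrb this p was fixed in the same way and adds nothing to the results of the single genes. Leaving out single rats, the differences of these 3 ratios lay between −1.30 and −0.95, between 1.86 and 2.34, and between 0.76 and 1.17.

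Among the contractile genes the ratios to Myh11 moved less. Those of Acta2, Tagln and Cnn1 overlapped between the groups, with differences of 0.32, 0.15 and 0.30 (exact permutation p = 0.3, 0.8 and 0.4). The log2 ratio of Myl9 to Myh11 was 1.83, 2.90 and 2.92 in the sham rats and 3.13, 2.97 and 3.01 in the I/R rats, a difference of 0.49 (exact permutation p = 0.1, adjusted 0.18). It rested on sham replicate 1, without which it was 0.13.

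**Figure D4:**
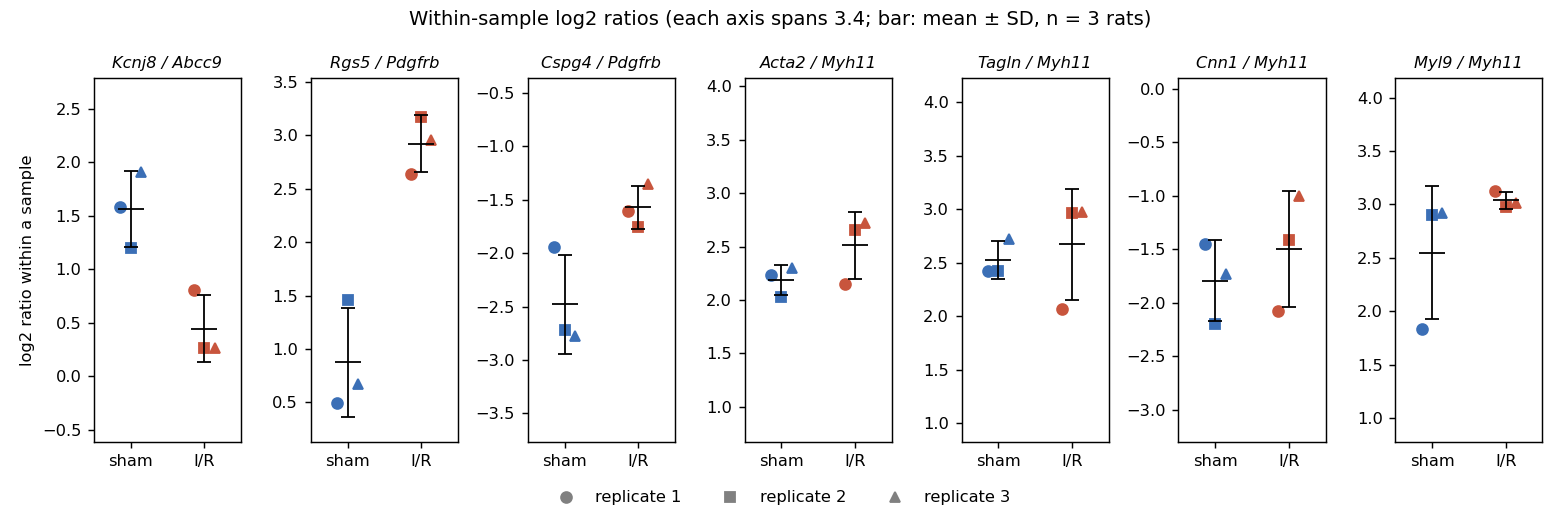
Log2 ratios between pairs of genes within each sample (vertical axes, each spanning the same range of 3.4) in the sham (blue) and I/R (red) rats, with the mean and SD of 3 rats as the bar. The ratios of Kcnj8 to Abcc9, Rgs5 to Pdgfrb and Cspg4 to Pdgfrb separate the groups, with mean differences of −1.12, 2.05 and 0.91. For Rgs5 to Pdgfrb this follows from the separation of each gene alone. The ratio of Myl9 to Myh11 separates them narrowly (mean difference 0.49), and those of Acta2, Tagln and Cnn1 to Myh11 overlap.

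The genes that work with these 10 were followed in lists. Over all genes tested, 25.5% were called higher and 7.36% lower, and the median log2 fold change was 0.29. Of the 4 KATP channel genes, Kcnj11 and Abcc8 were higher. Kcnj11 encodes Kir6.2, the pore of the cardiomyocyte channel, and stood at 3.50, 2.51 and 2.06 FPKM in the sham rats and at 19.4, 7.25 and 7.11 FPKM in the I/R rats (log2 fold change 1.89 with a standard error of 0.39, adjusted p = 0.0073, limma). I/R replicate 1 carried the largest value. Abcc8, the SUR1 subunit, had a log2 fold change of 1.55 (adjusted p = 0.0052, limma), and its call was lost without mitochondrial mRNAs in the scaling (0.81, adjusted p = 0.069, limma).

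Pdgfb, the ligand of Pdgfrb that endothelial cells release to hold pericytes, rose. It stood at 3.83, 5.69 and 5.64 FPKM in the sham rats and at 15.0, 15.1 and 8.92 FPKM in the I/R rats (log2 fold change 1.33 with a standard error of 0.28, adjusted p = 0.0081, limma). Pdgfa, whose product acts on the other receptor, Pdgfra, rose by a log2 fold change of 1.54 (adjusted p = 0.0033, limma). Pdgfd, another ligand of Pdgfrb, is named because it was lower in every I/R rat, as were 13.0% of all genes tested. It stood at 0.713, 0.867 and 0.869 FPKM in the sham rats and at 0.656, 0.619 and 0.339 FPKM in the I/R rats. Pdgfd did not pass the test (−0.56, adjusted p = 0.23, limma). The directions of Pdgfa and Pdgfb held under all 17 alternatives, and Pdgfa kept its call under each, while Pdgfb lost it without mitochondrial mRNAs in the scaling (0.55, adjusted p = 0.19, limma). Of the 7 genes of the family 6 were tested, with 2 called higher and 1 lower (25.5% and 7.36% over all genes tested). The 1 called lower was Pdgfrb itself, whose call is already given above. The counts were 1 higher and 3 lower without mitochondrial mRNAs in the scaling. Pdgfra, named as the receptor of fibroblasts, did not pass the test (log2 fold change −0.36, adjusted p = 0.27, limma).

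Rgs5 was not the only member of its family that rose. Of 21 RGS genes 12 were tested, and limma called 5 higher and none lower (25.5% and 7.36% over all genes tested). At an unadjusted p under 0.05, 2 were lower, and the median log2 fold change was 0.16, below the 0.29 of all genes tested. Without mitochondrial mRNAs in the scaling 3 were called higher and 4 lower, and the median was −0.59. Rgs16 had the largest log2 fold change (2.62, adjusted p = 0.0022), followed by Rgs2 (2.14, adjusted p = 0.0040) and Rgs1 (1.81, adjusted p = 0.0041, limma), which is best known from lymphocytes. At 54.3 FPKM in the I/R group Rgs5 remained the most abundant of the family per length.

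Among 21 transcription factors and Notch genes of mural cells, 15 were tested, and 3 were called higher and 2 lower (25.5% and 7.36% over all genes tested). The median log2 fold change was 0.22, against 0.29 over all genes tested. Without mitochondrial mRNAs in the scaling 1 was called higher and 4 lower. Srf stood at 2.22, 2.66 and 2.09 FPKM in the sham rats and at 12.0, 11.9 and 7.27 FPKM in the I/R rats (log2 fold change 2.08 with a standard error of 0.26, adjusted p = 0.0017, limma), and its call held under all 17 alternatives. Myocardin itself (Myocd) did not pass the test (log2 fold change 0.61, adjusted p = 0.27, limma) and is named here because it partners SRF. Notch3, the Notch receptor of arterial mural cells, rose (1.28, adjusted p = 0.011, limma), and its call held under 15 of 16 alternatives. Heyl was higher (0.67, adjusted p = 0.0496) and Hey1 lower (−0.63, adjusted p = 0.043, limma), calls that held under 5 of 17 and 6 of 16 alternatives, and Heyl fell below 0 (−0.11) without mitochondrial mRNAs in the scaling.

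Of 28 other pericyte genes 22 were tested. Of these 6 were called higher and 2 lower, near the shares of 25.5% and 7.36% over all genes tested. The median log2 fold change was 0.12, against 0.29 over all genes tested. Without mitochondrial mRNAs in the scaling 0 were called higher and 10 lower. Ednrb, an endothelin receptor, rose (log2 fold change 1.54, adjusted p = 0.0066, limma), and its call held under 15 of 16 alternatives. Gucy1a1, a subunit of the soluble guanylate cyclase that relaxes smooth muscle on nitric oxide, fell from 4.83, 6.87 and 6.34 FPKM to 1.57, 2.02 and 2.77 FPKM (−1.48, standard error 0.26, adjusted p = 0.0046, limma), and it kept this call under each of the 16 alternatives in which it was tested.

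Of 32 other genes of the contractile apparatus and its kinases 26 were tested. Limma called 7 higher, near the share of 25.5% over all genes tested, and none lower (7.36% over all genes tested). At an unadjusted p under 0.05, 1 was lower, and the median log2 fold change was 0.46, against 0.29 over all genes tested. The largest log2 fold changes of the list were those of Tpm1 (2.82, adjusted p = 0.0026), Synpo2 (1.69, adjusted p = 0.0052) and Des (1.61, adjusted p = 0.020, limma). These genes are also made by cardiomyocytes, and Des kept its call under 10 of 17 alternatives. After quantile normalization 2 were called higher and 1 lower with a median of −0.074, and without mitochondrial mRNAs in the scaling 2 were called higher and 2 lower with a median of −0.30.

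**Figure D5:**
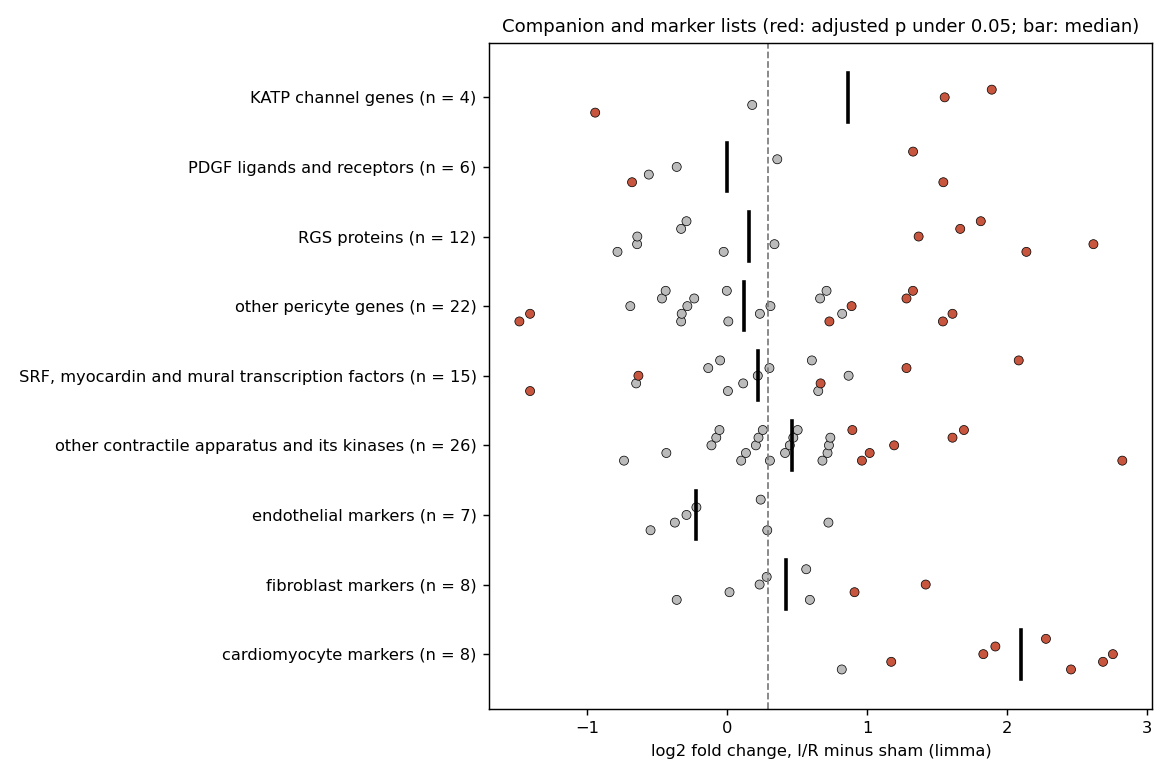
Log2 fold change (horizontal axis, I/R minus sham) of every tested gene of the companion and marker lists, in red where the adjusted p is under 0.05, with a bar at the median of each list and a dashed line at the median of all genes tested (0.29). The cardiomyocyte markers lie furthest to the right (median 2.10) and the endothelial markers furthest to the left (median −0.22).

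Markers of other cells in the tissue moved unevenly, and their counts stand beside 25.5% called higher and 7.36% called lower over all genes tested. Of 8 endothelial markers 7 were tested and none passed the limma test in either direction, with 1 higher and 1 lower at an unadjusted p under 0.05 and a summed level of 188 to 242 FPKM in the sham group and 185 to 218 FPKM in the I/R group, although 6 of the 7 were called lower after quantile normalization and 4 without mitochondrial mRNAs in the scaling. Of 8 fibroblast markers, Col1a1 and Tcf21 were called higher, and the sums were 439 to 605 FPKM in the sham group and 623 to 694 FPKM in the I/R group, but 0 were called higher and 2 lower both after quantile normalization and without mitochondrial mRNAs in the scaling. Of 7 leukocyte markers tested, S100a8 and S100a9 were called higher, with sums over the list of 58.0 to 74.3 FPKM and 82.2 to 148 FPKM. Ptprc, the marker of all leukocytes, was lower in every I/R rat, as were 13.0% of all genes tested. It did not pass the test (log2 fold change −0.93, adjusted p = 0.067, limma). After quantile normalization 0 leukocyte markers were called in either direction, and without mitochondrial mRNAs in the scaling 1 was called higher and 1 lower. Red blood cell markers spanned 1131 to 1262 FPKM in the sham group and 605 to 1752 FPKM in the I/R group, with none of 3 tested past the limma threshold (0 at an unadjusted p under 0.05) and Hbb-bs listed at 0 in every sample. Of 5 Schwann cell and neuron markers tested, Tubb3 was higher, and the 1 mesothelial marker tested did not pass. On the deposited scale the summed levels of the fibroblast and leukocyte markers did not overlap between the groups, and the part of any of these cells in the values of the 10 genes was not tested.

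The members Rgs5, Pdgfrb, Cspg4, Kcnj8 and Abcc9 moved apart. Their averaged profile, in log2 values centred on each gene's mean, stood at −0.19, 0.29 and −0.15 in the sham rats. In the I/R rats it stood at 0.23, 0.082 and −0.27. Among the nearest genes, Cox15, Macroh2a1, Arnt and Ate1 lay 0.035 to 0.060 from it in root mean square difference, closer than any of the 5 genes themselves (0.15 to 0.72).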

How the data were processed

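RNA of 3 sham and 3 I/R rats was measured on stranded total RNA libraries. The authors deposited 1 table of FPKM for 30452 Ensembl genes, and the submitters' processing notes name STAR and HTSeq, whose versions and roles, like the genome build, annotation and scaling total, are not given in the sources used here. FPKM carry no fragment counts, so counting error is unknown. In 3952 genes with a mean under 0.05 FPKM, 89.4% had values in whole steps within 2%, which gave relative depth if the scaling total was the fragment total.

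Columns were matched to samples by title, rows sharing a symbol were summed (28293 genes, with 7092 rows without a symbol kept by identifier), and log2(FPKM + 0.1) of the 10942 genes with a mean of at least 0.5 FPKM was fitted with limma 3.58.1 in R 4.3.3 (intensity trend, no block), with Benjamini-Hochberg adjustment and a threshold of 0.05. On simulated data of 10942 genes, limma called in the right direction 157 of the 200 genes given a log2 change of 2. There were 6 false calls among the genes left unchanged. The simulated libraries did not differ in composition, so errors from the scaling were not tested. Ratios were compared with two-sided exact permutation tests (scipy 1.17.1).

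The replicate numbers come from the sample titles, and deviations from the group means of same-numbered samples correlated at 0.20, 0.12 and 0.12 across genes (sham replicate 3 and I/R replicate 2 also at 0.12), so limma was also fitted with that number as a block. The alternatives were other pseudocounts (1 and 0.01), other filters, scalings, limma without the trend, the block, the highest row per symbol and leaving out each rat.

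The members, lists and tests were chosen with earlier results of these data known. All 10 members are named. From each companion list, up to 3 genes that rose most and up to 3 that fell most are named, among those past the threshold with a mean of at least 1 FPKM, and from the search for like profiles the 5 nearest genes. Some genes that the rule selects are not reported here. Genes outside this rule are marked where they are named. Companion and marker genes absent from the table or under the filter were not tested.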

Additional observations from a re-analysis of the deposited data

How the results depend on the processing

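The count of genes called higher among the 10 was 1 as reported, 2 after rescaling to TPM, and 0 after quantile normalization and without mitochondrial mRNAs in the scaling. The count called lower was 2 as reported, 1 with a pseudocount of 0.01 and in limma without the trend, and 0 with no filter on low values and after rescaling to TPM. Leaving out single rats gave 0 (sham replicate 3) to 3 (sham replicate 1) higher and 0 to 2 lower. Over all genes, 2790 were called higher and 805 lower as reported. The number lower was 166 at a mean of at least 5 FPKM, 504 after rescaling to TPM and 1554 after centring on the median. Quantile normalization gave 1441 higher and 1559 lower, and scaling without mitochondrial mRNAs gave 793 higher and 2857 lower. With each rat left out, 1528 to 2557 were higher and 309 to 881 lower. The lowest counts came without sham replicate 3 for genes higher (1528) and without sham replicate 2 (309) or sham replicate 3 (359) for genes lower. The cause of these shifts was not tested.

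The sign of the log2 fold change turned for genes that had not passed the test. After quantile normalization it was −0.15 for Acta2, −0.10 for Myh11, −0.38 for Tagln, −0.25 for Abcc9 and −0.11 for Myl9. Without mitochondrial mRNAs in the scaling it was −0.023 for Acta2, −0.34 for Myh11, −0.20 for Tagln, −0.013 for Cnn1, −0.52 for Cspg4, −0.59 for Abcc9 and, among the companion genes, −0.11 for Heyl, which had passed it. After centring on the median it was −0.021 for Cspg4 and −0.069 for Abcc9. Myh11 ranged from −0.075 to 1.07 with each rat left out.

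With the replicate block, 3085 genes were higher and 895 lower, and Rgs5 (adjusted p = 0.0016), Kcnj8 (0.026) and Pdgfrb (0.039, limma) kept their calls. It changed no call of the 10 genes, and among the companion genes named it ended that of Hey1 (adjusted p = 0.052). The 7 ratios moved by less than 1 SD under a pseudocount of 1 and with each rat left out. The design has 3 rats against 3, so single values cannot reach a permutation p under 0.1, and the FPKM give no counting error for the scarcer genes.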
